A study of Mus musculus with 2 samples.

Results

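The genes described here are Gabrb1, Gabrg1 and Gabrg3, Gria2, Grin2c, Grik1, Neto2, Grm3 and Grm5, which encode GABA and glutamate receptor subunits or their partners, and Npy, which encodes neuropeptide Y. They are 10 of the 25906 genes counted in single cells of the adult mouse brain, and were picked by symbol because earlier values of these same data drew attention to them. Their levels and differences are therefore a description, and none carries a test. Cells sorted as astrocytes and endothelial cells gave 2 libraries, one for each genotype at the Il34 locus. One genotype carried 1 LacZ allele (IL34LacZ/+, which the submitters call WT) and the other carried the LacZ allele on both copies (IL34LacZ/LacZ, which they call KO), so that no library without a LacZ allele was included. With 1 library per genotype, no difference between genotypes has a replicate check, and genotype, animals, sort and library cannot be told apart. The labels and protocols do not give how many mice were pooled, an age beyond adult, or the markers of the sort.

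Il34, the targeted gene, gave 166 UMIs (unique molecules) in 59 cells of the library labelled IL34LacZ/+ and 262 UMIs in 63 cells of the library labelled IL34LacZ/LacZ. As UMIs per 1000000 UMIs of the kept cells (CPM), these were 10.2 (8.73 to 11.9) and 18.8 (16.6 to 21.2). The level was thus higher in the library whose label names LacZ on both copies. The sources do not say whether the counted 3′ end lies outside the part that LacZ replaces, so Il34 does not check the labels. Both libraries are named by their labels, and every direction between them rests on those labels.

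Astrocytes take up and sense the transmitters that neurons release. Fast signals pass through ion channels: GABA-A receptors, which are built from alpha, beta and gamma subunits, and the AMPA, kainate and NMDA classes of glutamate receptor. Slower signals pass through metabotropic glutamate receptors, of which mGluR3 (Grm3) couples to Gi proteins and mGluR5 (Grm5) to Gq proteins and calcium release. Neuropeptide Y is a secreted peptide best known from interneurons and hypothalamic neurons, and it is also a known product of olfactory ensheathing cells, the glia that wrap the axons of the olfactory nerve.

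The libraries held 26679053 and 36696941 UMIs in 3901 and 5400 barcodes, given here and throughout in the order IL34LacZ/+ and then IL34LacZ/LacZ. After filtering, 1665 and 1168 cells were kept, whose median depth was 8096 and 10378 UMIs. Cell classes were set by marker gates, and 247 and 114 cells were astrocyte-gated, with a median of 13 of 14 astrocyte markers detected and a median of 8609 and 8905.5 UMIs. The sort label also covers endothelial cells (503 and 282), but 344 and 255 choroid plexus cells and 247 and 226 oligodendrocytes were present too, so cells outside the labelled sort were among them. A haemoglobin-rich class of 29 and 59 cells also carried RNA of astrocyte genes. Neuron markers were found in astrocyte-gated cells at a summed 76.4 and 77.3 CPM, with 10 and 9 of the 12 markers detected. Haemoglobin RNA was present in every astrocyte-gated cell, at a summed 1927 and 1930 CPM. Levels are CPM of the summed UMIs of a class, with the exact 95% Poisson interval, and shares of cells carry exact Clopper-Pearson intervals. All intervals cover counting error only. Counts come from 3′ ends and are not per length, so levels are compared for 1 gene between cells. The exception is a wider list of receptor and neuropeptide genes. Its genes are set against shared levels, only as a rough description.

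Promoter sequence is shown for 3 of the genes: Npy, whose UMIs sat in a handful of cells, and Grm3 and Grin2c, whose levels were both lower at one end of an astrocyte gradient. Each line gives the 250 bases before the RefSeq start site (GRCm38.p6), 5′ to 3′ on the strand of the gene, and capitals mark CG dinucleotides.
Npy, chr6:49822460-49822709 (plus strand): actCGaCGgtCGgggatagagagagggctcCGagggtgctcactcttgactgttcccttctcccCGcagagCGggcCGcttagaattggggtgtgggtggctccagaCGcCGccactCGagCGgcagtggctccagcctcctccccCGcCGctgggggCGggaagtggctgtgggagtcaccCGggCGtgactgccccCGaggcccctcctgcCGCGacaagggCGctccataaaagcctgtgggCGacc
Grm3, chr5:9725353-9725602 (minus strand): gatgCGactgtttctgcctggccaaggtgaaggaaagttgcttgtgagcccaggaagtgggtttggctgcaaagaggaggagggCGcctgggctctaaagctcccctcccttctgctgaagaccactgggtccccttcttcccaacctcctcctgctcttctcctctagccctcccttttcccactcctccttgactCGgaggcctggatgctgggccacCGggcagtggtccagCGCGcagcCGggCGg
Grin2c, chr11:115267244-115267493 (minus strand): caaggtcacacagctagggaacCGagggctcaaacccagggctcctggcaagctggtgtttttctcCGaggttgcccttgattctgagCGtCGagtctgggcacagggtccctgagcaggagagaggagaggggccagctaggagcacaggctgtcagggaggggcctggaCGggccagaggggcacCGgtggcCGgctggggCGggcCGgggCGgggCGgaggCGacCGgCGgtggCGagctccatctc
The Npy window held 21 CG dinucleotides and 69.2% G or C, and 16.3% of the 32851 RefSeq promoter windows held at least as many. Grin2c held 15 (27.3% of windows held as many) and Grm3 held 8 (43.0%). On either strand, none of the 3 windows held CACGTG (an E-box, in 6.02% of all windows), TGACGTCA (a cyclic AMP response element, in 1.55%) or TATAAA (in 12.4%). Grin2c and Grm3 thus differed in CG content. The RefSeq promoter table matched 8 of the 10 genes by symbol, all but Grik1 and Grm5.

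The label of an astrocyte gene did not hold for Npy, whose UMIs lay mostly in a few other glial cells. The library labelled IL34LacZ/+ held 334 Npy UMIs in 22 cells, and 306 of them (91.6%) were in 5 cells that also carried at least 3 of the 5 olfactory ensheathing markers Frzb, Prss56, Mybpc1, Sox10 and Foxd3. Those 5 cells held 13, 25, 48, 100 and 120 Npy UMIs, which is 2078 to 12223 CPM in the single cell. Of the 5, 4 passed the ensheathing gate and the other, with 3 markers and 13% mitochondrial UMIs, fell short of every gate. Aqp4, the astrocyte water channel, gave at most 1 UMI in each of them, while Gja1, the connexin 43 gene that is also an astrocyte marker, gave 11, 4, 0, 5 and 13 UMIs in the same order. Astrocyte-gated cells with an Npy UMI held 5 to 39 Gja1 UMIs. Astrocyte-gated cells of the same library held 9 Npy UMIs in 4 of 247 cells, or 4.02 CPM (1.84 to 7.63), and 6 of those 9 were in 1 cell. That cell also held 11 UMIs of Mybpc1 but none of Frzb, Prss56, Sox10 or Foxd3. Without it the astrocyte level was 1.35 CPM. Endothelial-gated cells, which should lack the gene, held 2 Npy UMIs in 503 cells (0.760 CPM).

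**Figure D1:**
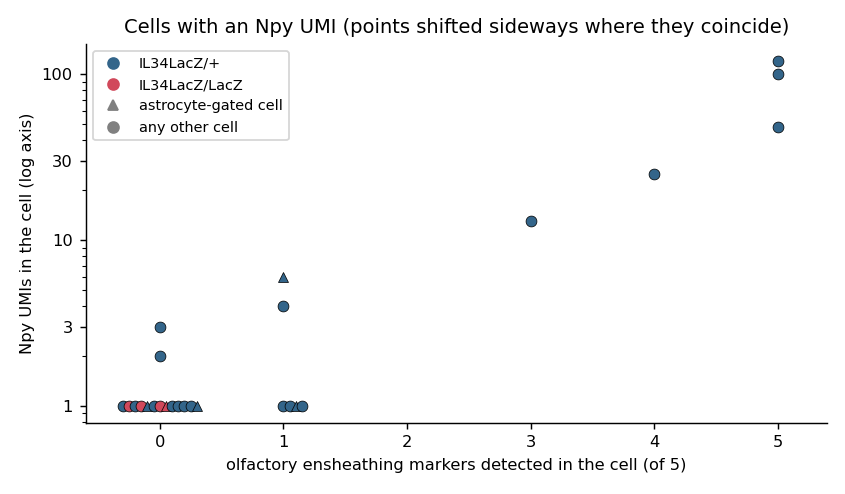
Npy UMIs in each cell that held any (log axis) against how many of 5 olfactory ensheathing markers the cell held, coloured by library, with astrocyte-gated cells as triangles. The 5 cells with 3 or more markers sit between 13 and 120 UMIs, and every other cell holds 6 or fewer.

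In the library labelled IL34LacZ/LacZ, 4 Npy UMIs were seen, in 4 cells, and 1 of them was in an astrocyte-gated cell. No cell of that library passed the ensheathing gate, and the 1 cell with 3 of the markers was an oligodendrocyte-gated cell with no Npy. By a one-sided approximation, not the exact interval used for other shares, a count of 0 among 1168 cells allows up to about 0.257% of cells. The other library had 0.240% (exact interval 0.0655 to 0.614) as its 4 gated cells and 0.300% as its 5 Npy-rich cells. That limit lies inside the exact interval, so no difference between the libraries is read from the absence. In astrocyte-gated cells the log2 ratio of Npy between the libraries was −2.19, on 9 and 1 UMIs, with an interval of −7.65 to 0.66. Npy, on chr6:49822710-49829507 with 4 exons, had no overlapping gene in the GENCODE M21 annotation. The same 5 cells also held Grik1 in every cell, with 30, 11, 7, 1 and 1 UMIs in the order of falling Npy. They held 146 UMIs of Gabrg3, of which 142 came from the cell richest in Npy. Gabrg1, Grin2c and Grm5 were at 0 there, each with an upper bound of 83.1 CPM.

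Among the GABA-A subunits, Gabrb1 (a beta subunit, chr5:71658113-72149037, 9 exons) had a UMI in every astrocyte-gated cell. Its level was 3538 CPM (3460 to 3617) for IL34LacZ/+ and 3639 CPM (3529 to 3751) for IL34LacZ/LacZ. Single cells ranged around a median of 3252 and 3290 CPM, with quartiles of 2154 to 4481 and 2187 to 4603. Neuron-gated cells, only 17 and 11 in number, came next with 1078 and 691 CPM, the haemoglobin-rich class had 474 and 98.4 CPM, and endothelial cells had 12.9 and 6.17 CPM. Gabra4 overlaps Gabrb1 on the opposite strand and was counted as a gene of its own.

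Gabrg1 (a gamma subunit, chr5:70751047-70842617, 9 exons) followed the astrocyte class most closely. Astrocyte-gated cells held 95.1% and 92.6% of all Gabrg1 UMIs of their libraries. The astrocyte level was 252 CPM (232 to 274) and 229 CPM (202 to 259), against 1.14 CPM and 0 in endothelial cells. A UMI was found in 72.5% of astrocyte-gated cells (66.4 to 77.9) and in 84.2% (76.2 to 90.4) for IL34LacZ/+ and IL34LacZ/LacZ. At the same mean level in every cell, 209 and 96.6 cells would have held a UMI, where 179 and 96 did. Fewer cells than an even level would give held the gene in the first library, and about as many in the second. Thinned to 1000 UMIs per cell the order of the libraries turned, with 23.1% and 17.5% of cells, so no direction is read from these shares.

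Gabrg3 (another gamma subunit, chr7:56716465-57387188, 10 exons) was held by a minority of astrocytes. Its level was 104 CPM (90.7 to 118) and 51.9 CPM (39.5 to 66.9). Only 66 of 247 cells (26.7%) and 25 of 114 cells (21.9%) held a UMI, where an even level would have given 143 and 44.2 cells. In the library labelled IL34LacZ/+, 13 cells carried 50% or more of the UMIs, and in the other 7 did. Endothelial cells with a UMI were 1.59% and 0.709%, at a lower median depth of 4408 and 4974 UMIs. Thinned to 1000 UMIs, 8.50% and 4.39% of astrocyte-gated cells held one, against 0 and 0.355% of endothelial cells. Neuron-gated cells held 877 and 1350 CPM, and 1 cell supplied 101 of the 164 neuron UMIs in the IL34LacZ/LacZ library. Gabrg3 thus stood higher in those few neuron-gated cells than in astrocytes in both libraries.

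Among the ionotropic glutamate genes, Gria2 (the AMPA subunit that makes the channel impermeable to calcium when edited, chr3:80681450-80802835, 16 exons) was found in 93.1% and 93.0% of astrocyte-gated cells. Its level was 1857 CPM (1801 to 1914) and 1344 CPM (1277 to 1413). Neuron-gated cells were lower, at 750 and 634 CPM, and oligodendrocytes held 35.1 and 13 CPM. Grin2c (an NMDA subunit, chr11:115249169-115267243, 15 exons) stood at 218 CPM (200 to 239) and 196 CPM (171 to 223), with 69.2% and 68.4% of cells holding a UMI. Neuron-gated cells had 74.0 and 49.4 CPM, from 7 and 6 UMIs. Endothelial cells had 1.14 and 1.23 CPM. Astrocyte-gated cells held 93.3% and 84.5% of all Grin2c UMIs.

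The kainate receptor subunit Grik1 (chr16:87895900-88290265, 17 exons) was at the level of endothelial cells in astrocytes. Astrocyte-gated cells had 15.2 CPM (10.5 to 21.2) and 11.4 CPM (6.08 to 19.5), and in both libraries their intervals overlapped those of endothelial cells (19.8 and 10.5 CPM). Oligodendrocytes had 128 CPM (116 to 140) and 134 CPM (123 to 146), and held 61.4% and 80.5% of the Grik1 UMIs of their libraries, and neuron-gated cells had 211 and 305 CPM. The log2 ratio of astrocytes over oligodendrocytes was −3.07 (−3.62 to −2.57) and −3.55 (−4.47 to −2.77). Even there Grik1 was patchy: 93 of 247 and 96 of 226 oligodendrocytes held a UMI, where an even level would have given 190 and 197 cells. The 5 Npy-rich cells together stood at 1127 CPM (836 to 1485).

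Neto2 (an auxiliary subunit of kainate receptors, chr8:85636588-85700924, 9 exons) was sparse. Astrocyte-gated cells held 81 UMIs in 40 cells for IL34LacZ/+, or 36.2 CPM (28.7 to 45.0), and 13 UMIs in 11 cells for IL34LacZ/LacZ, or 11.4 CPM (6.08 to 19.5). Neuroblast-gated cells stood higher, with 205 CPM over 10 cells and 109 CPM over 2 cells, and neuron-gated cells had 201 and 98.8 CPM. In the first library astrocytes exceeded oligodendrocytes (3.45 CPM), and in the second the intervals overlapped (7.45 CPM in oligodendrocytes).

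**Figure D2:**
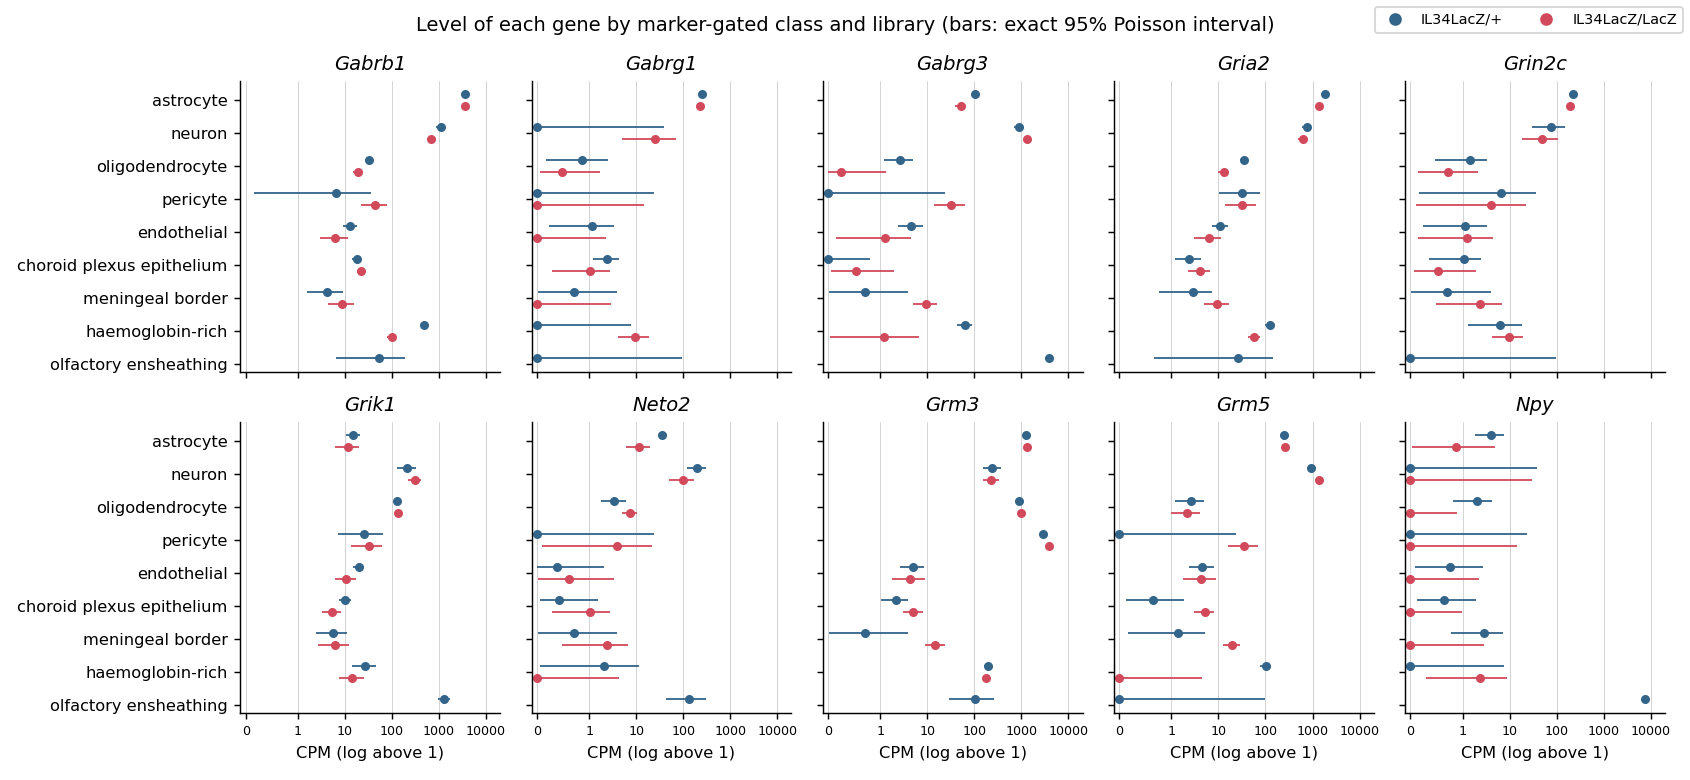
Level of each gene (CPM, log axis above 1) in 9 marker-gated classes and both libraries, with exact 95% Poisson intervals. Gabrb1, Gabrg1, Gria2 and Grin2c are highest in astrocytes, Grm3 in pericytes, and Npy in olfactory ensheathing cells, a class the IL34LacZ/LacZ library lacks.

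The metabotropic receptors differed in where they were found. Grm3 (chr5:9485541-9725170, 6 exons) was higher in pericytes, the mural cells of capillaries, than in astrocytes. Pericyte-gated cells had 2829 CPM (2571 to 3105) and 3810 CPM (3573 to 4058), astrocytes 1286 CPM (1240 to 1334) and 1310 CPM (1244 to 1378), and oligodendrocytes 892 CPM (861 to 924) and 971 CPM (941 to 1002). The intervals of the 3 classes did not overlap in either library, and the log2 ratio of astrocytes over pericytes was −1.14 (−1.28 to −0.99) and −1.54 (−1.66 to −1.42). The pericyte signal was not that of a few cells, since 31 of 32 and 46 of 46 pericytes held a UMI and the median cell had 2658 and 3502 CPM. Endothelial cells, the neighbours of pericytes in the vessel wall, had 4.94 and 4.32 CPM, with a UMI in 2.58% and 1.77% of cells. A gene model on the same strand (Gm42455) lies within Grm3 and was counted separately.

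Grm5 (chr7:87584168-88134907, 10 exons) was patchy among astrocytes. The level was 247 CPM (226 to 268) and 254 CPM (226 to 285), but only 92 of 247 cells (37.2%) and 44 of 114 cells (38.6%) held a UMI. At an even level, 208 and 99.3 cells would have done so. In 16 and 9 cells lay 50% or more of the Grm5 UMIs. The background in endothelial cells was 2.39% and 2.13% of cells. Thinned to 1000 UMIs per cell, 15% and 14.9% of astrocyte-gated cells held a Grm5 UMI, against 0.596% and 0.709% of endothelial cells. Neuron-gated cells had 951 and 1358 CPM. Grm5 has 5 same-strand gene models within it in the annotation that were counted separately.

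**Figure D3:**
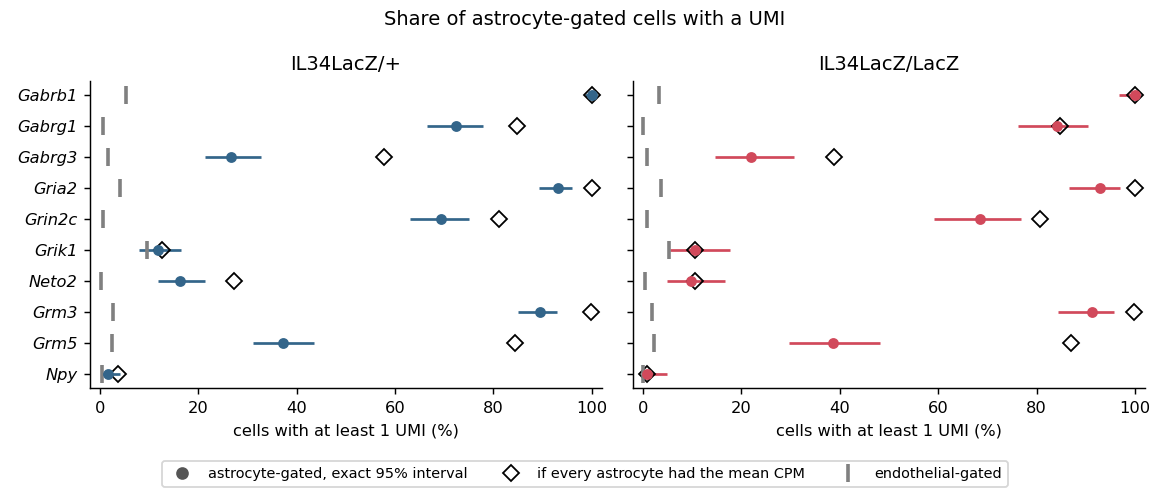
Share of astrocyte-gated cells with at least 1 UMI of each gene (circles, exact 95% interval), the share that an equal CPM in every cell would give (diamonds) and the share of endothelial-gated cells with a UMI (grey ticks), by library. Grm5 and Gabrg3 lie furthest to the left of their diamonds in both panels, while Gabrb1 lies on it.

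Among astrocytes, the genes were compared along the summed share of Agt, Slc6a11 and Itih3 in a cell's UMIs, 3 genes that mark astrocytes outside the telencephalon. Agt encodes angiotensinogen, and Slc6a11 encodes the GABA transporter GAT-3. Cells under 0.05% were called telencephalic-type (26 cells for IL34LacZ/+ and 12 for IL34LacZ/LacZ) and the rest other astrocytes (221 and 102). This is a cut through a range: 48 and 23 cells lay within 2-fold of it, and the nearest cells had shares of 0.0480% and 0.0505% in the first library and 0.0481% and 0.0503% in the second. Lhx2, a forebrain transcription factor, was 158 and 181 CPM below 0.05%, 208 and 148 CPM between 0.05% and 0.1%, and 23.1 and 61.2 CPM in the next bin. By that gene the break lay nearer to 0.1%, so values at the 0.1% cut are given too. Slc6a9, a glycine transporter of caudal astrocytes, went the other way, from 66.7 and 25.9 CPM in the lowest bin to 451 and 358 CPM in the highest. Both were chosen after their values were seen, and not all regional genes followed them. Between the lowest and the highest bin, 4 of 7 telencephalic genes were lower in both libraries (among them Lhx2, Emx2 and Dmrta2), and 6 of 12 non-telencephalic genes were higher in both. These counts compare CPM alone, without an interval or a UMI minimum. The share over all genes was not computed, so nothing is read from the counts. Some rested on few UMIs: Dmrta2 went from 5 and 4 UMIs to 0 in both libraries, and Irx1 from 2 and 0 to 15 and 5 UMIs. Nr2f2, listed as telencephalic, was higher, from 4.17 to 40.9 and from 17.2 to 34.0 CPM, and Mfge8 went from 375 to 419 and from 1095 to 374 CPM. Zic1, listed as non-telencephalic, was lower, from 41.7 to 18.2 and from 43.1 to 21.6 CPM, and Meis1 went from 217 to 142 and from 112 to 179 CPM. The name telencephalic-type therefore stands only for a share under the cut. Telencephalic-type cells held a summed 4200 and 22396 CPM of choroid plexus markers, with 8 and 10 of the 11 detected, against 1357 and 881 CPM in other astrocytes. The highest telencephalic-type cell had 34706 and 139105 CPM, against 4212 and 1885 CPM for the highest other astrocyte. The median telencephalic-type cell had 1396 and 989 CPM and the median other astrocyte 1321 and 896 CPM. In choroid plexus markers the median cells of the types thus differed little. Markers of Bergmann glia, which are cerebellar astrocytes, were also higher in telencephalic-type cells, at a summed 108 and 259 CPM against 55.0 and 37.2 CPM. They were held by 57.7% and 50% of cells against 15.8% and 17.6%. The telencephalic-type sums rested on 26 and 30 UMIs of 3 genes. The highest telencephalic-type cell had 437 and 1002 CPM of these markers, and the highest other astrocyte 3273 and 597 CPM. The summed levels and cell shares of the Bergmann glia markers go against the name. The part of either marker list in the results was not tested.

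Of the 10 members, 9 and 7 had the 30 UMIs that a call needed. In each library 3 of them passed 2-fold with an interval that left out equal levels, where 9.05% of 8551 genes did so for IL34LacZ/+ (5.33% higher and 3.72% lower in other astrocytes) and 9.1% of 6013 genes for IL34LacZ/LacZ (5.02% higher and 4.07% lower). Because the members were chosen with this contrast known, nothing is read from that count. For IL34LacZ/+ they were Grm3, Grm5 and Grik1, and for IL34LacZ/LacZ they were Grm3, Grm5 and Gabrg3. The median log2 ratio over the members tested was −0.41 and −0.05, over the receptor and neuropeptide list 0.14 and 0.38, and over all genes 0.06 and 0.08.

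Grm3 was lower in other astrocytes than in telencephalic-type ones. The levels were 1116 against 2700 CPM for IL34LacZ/+ and 980 against 4217 CPM for IL34LacZ/LacZ, log2 ratios of −1.27 (−1.40 to −1.15) and −2.11 (−2.26 to −1.95). At the 0.1% cut they were −1.59 (−1.70 to −1.48) and −1.86 (−2.01 to −1.71). Among telencephalic-type cells, 1 cell in each library held 13.9% and 21.3% of the Grm3 UMIs, and without it the levels were 2492 and 3772 CPM. Over the 5 bins of the share (26, 30, 38, 71 and 82 cells for IL34LacZ/+) Grm3 stood at 2700, 2537, 1302, 927 and 577 CPM. In the other library (12, 18, 17, 37 and 30 cells) it stood at 4217, 1928, 1390, 649 and 624 CPM. The share of cells with a Grm3 UMI stayed between 86.8% and 93.3% in the first library and between 83.3% and 94.4% in the second. It did not follow the level. In the lowest bin, 23 of 26 and 10 of 12 cells (88.5% and 83.3%) held the 648 and 489 UMIs. Some telencephalic-type cells thus held no Grm3 UMI although the level of the bin was the highest.

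Grm5 ran the opposite way. Other astrocytes had 261 CPM against 129 CPM for IL34LacZ/+ and 278 against 43.1 CPM for IL34LacZ/LacZ, log2 ratios of 1.01 (0.49 to 1.59) and 2.69 (1.45 to 4.32). The second rested on 5 UMIs in 2 of 12 telencephalic-type cells, and 4 of the 5 were in 1 cell. At the 0.1% cut, with 58 and 15 UMIs on the telencephalic side, the log2 ratios were 1.43 (1.04 to 1.85) and 2.66 (1.91 to 3.51). Grm5 stood at 129, 90.6, 257, 346 and 250 CPM over the bins of the first library and at 43.1, 56.9, 367, 298 and 330 CPM over those of the second, a step at 0.1% in both. Here the share of cells with a UMI was also higher in the third bin (47.4% and 47.1%) than in the lowest (23.1% and 16.7%). The median depth was 8029 and 9719 UMIs in the lowest bin and 9020 and 7779 in the third. From bin to bin the share did not always follow the level. Over the 5 bins it was 23.1%, 33.3%, 47.4%, 42.3% and 34.1% for IL34LacZ/+. For IL34LacZ/LacZ it was 16.7%, 22.2%, 47.1%, 45.9% and 43.3%.

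**Figure D4:**
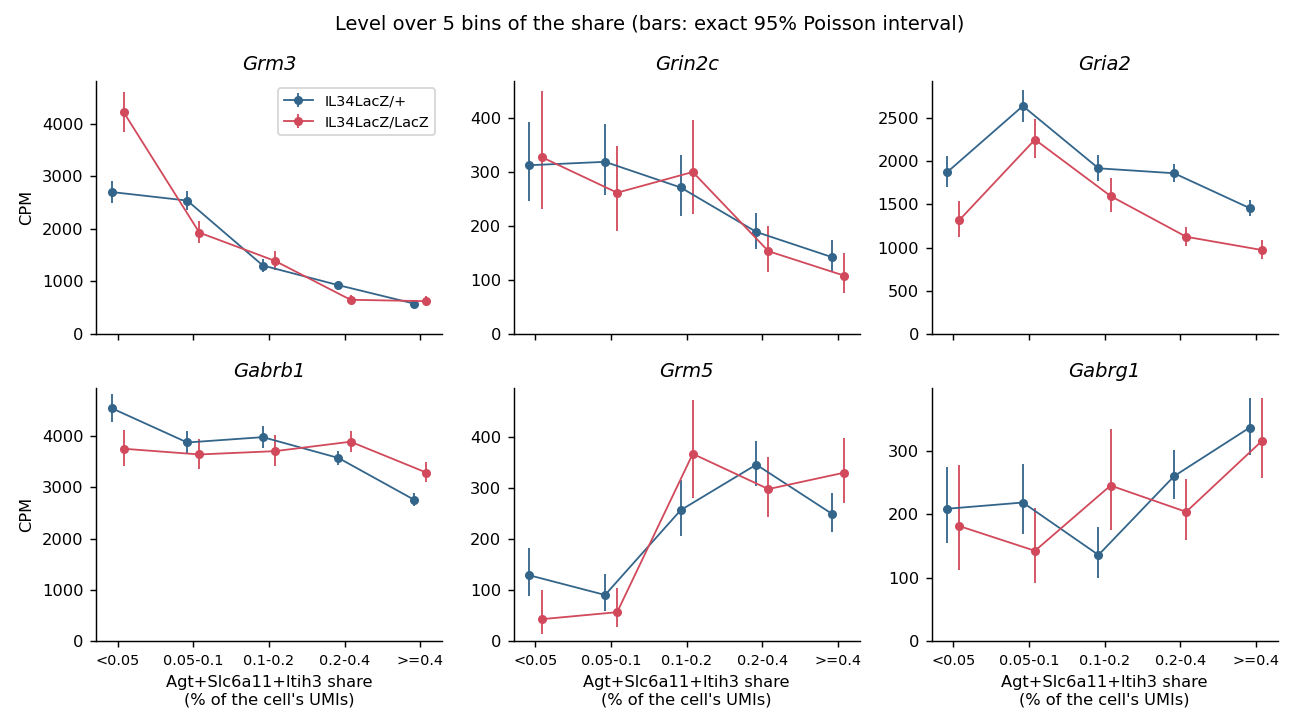
Levels (CPM, axes from 0) of 6 genes over 5 bins of the Agt, Slc6a11 and Itih3 share, by library, with exact 95% Poisson intervals. Grm3 and Grin2c are lower at high share and Grm5 is higher, with Grm3 at 2700 and 4217 CPM in the lowest bin and 577 and 624 CPM in the highest.

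Grin2c followed Grm3 with a smaller difference. The log2 ratio of other over telencephalic-type astrocytes was −0.59 (−0.95 to −0.22) and −0.86 (−1.37 to −0.31), and at the 0.1% cut −0.75 (−1.03 to −0.48) and −0.81 (−1.21 to −0.40). The bins went from 313 and 328 CPM to 142 and 108 CPM. Across single astrocyte-gated cells, Pearson's r of log-normalised Grm3 and Grin2c was 0.39 over 247 cells and 0.32 over 114 cells. Grm3 and Gria2 had r of 0.32 and 0.37, and Grm3 and Gabrg3 had 0.26 and 0.27, all from cells of 1 library that share its depth. Grm3 and Grm5 had r of −0.08 and −0.12.

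For Gria2 and Gabrg3 the values depended on where the cut lay. Gria2 had log2 ratios of −0.016 and 0.029 at 0.05% but −0.42 (−0.52 to −0.32) and −0.70 (−0.85 to −0.55) at 0.1%, with its highest level in the second bin (2641 and 2252 CPM). Gabrb1 had −0.41 (−0.50 to −0.32) and −0.05 (−0.19 to 0.10) at 0.05% and −0.32 (−0.39 to −0.25) and −0.02 (−0.12 to 0.08) at 0.1%, with its lowest level in the highest bin of both libraries (2757 and 3288 CPM). Gabrg1 had 0.30 (−0.12 to 0.75) and 0.38 (−0.27 to 1.09) at 0.05% and 0.30 (0.01 to 0.61) and 0.69 (0.22 to 1.18) at 0.1%. It was highest in the last bin, at 336 and 315 CPM. Gabrg3 had −0.01 (−0.61 to 0.65) and −1.17 (−2.11 to −0.12) at 0.05%, and −0.92 (−1.32 to −0.52) and −0.35 (−1.18 to 0.54) at 0.1%, so the library with the larger difference changed with the cut. Grik1 (8 and 2 UMIs) and Neto2 (12 and 1 UMIs) were too sparse in telencephalic-type cells to place, with intervals of −2.54 to −0.0037 and −2.88 to 2.53 for Grik1 and −1.43 to 0.49 and −2.31 to 5.86 for Neto2. At the 0.1% cut Grik1 was at −0.79 (−1.86 to 0.36) and −0.86 (−2.65 to 1.10), so its call for IL34LacZ/+ was lost. Neto2 was at 0.36 (−0.44 to 1.25) and −1.31 (−3.11 to 0.54) there.

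Between the libraries, 1 member passed 2-fold in astrocyte-gated cells, Neto2, where 2.32% of 9704 genes did so in either direction, 0.752% higher and 1.57% lower in the library labelled IL34LacZ/LacZ. Neto2 was lower in the library labelled IL34LacZ/LacZ, at 11.4 against 36.2 CPM, a log2 ratio of −1.66 (−2.63 to −0.81). Gabrg3 lay at the threshold, at 51.9 against 104 CPM and −1.0 (−1.44 to −0.58). Within other astrocytes, where 2.37% of 9361 genes passed, Gabrg3 was at −1.17 (−1.66 to −0.71), and within telencephalic-type ones, on 25 and 12 UMIs, at −0.01 (−1.14 to 1.04). Gria2 was lower by a smaller factor, at −0.47 (−0.55 to −0.38), and it was −0.51 (−0.78 to −0.24) in telencephalic-type and −0.46 (−0.55 to −0.37) in other astrocytes.

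The remaining receptors stood close to each other in both libraries. The log2 ratios were 0.04 (−0.01 to 0.09) for Gabrb1, −0.14 (−0.35 to 0.08) for Gabrg1, −0.16 (−0.39 to 0.07) for Grin2c, 0.03 (−0.07 to 0.12) for Grm3 and 0.04 (−0.17 to 0.25) for Grm5. Grik1 had too few UMIs to bound its ratio closely (−0.41, −1.46 to 0.55). The near-equal Grm3 totals held a difference within types: in telencephalic-type cells it was higher in the IL34LacZ/LacZ library, at 0.64 (0.47 to 0.81) on 26 and 12 cells, where 7.74% of 2236 genes passed 2-fold, and in other astrocytes it was lower, at −0.19 (−0.30 to −0.08). In telencephalic-type cells Grm5 was at −1.58 (−3.30 to −0.21), on 31 and 5 UMIs, and Gabrb1 at −0.28 (−0.44 to −0.11). The median log2 ratio over the members was −0.16, over the receptor list −0.10 and over all genes tested −0.05. Summed neuron markers were nearly equal in the astrocytes of the libraries, and endothelial markers were 170 CPM against 77.3 CPM and choroid plexus markers 1662 CPM against 3073 CPM for IL34LacZ/+ and IL34LacZ/LacZ. In choroid plexus markers the median astrocyte-gated cell went the other way, at 1332 and 914 CPM. The highest cell had 34706 and 139105 CPM. The part of these marker lists in the ratios was not tested.

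**Figure D5:**
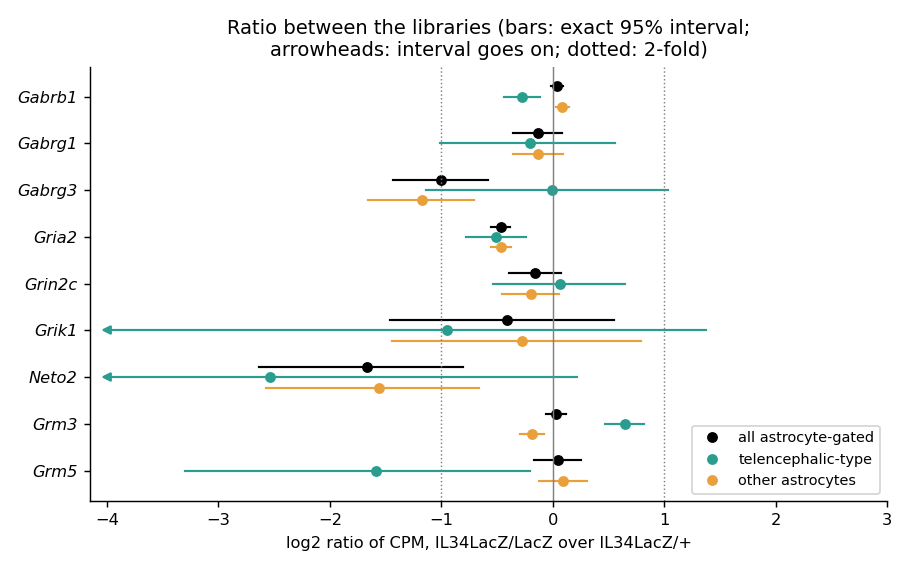
Log2 ratio of CPM, IL34LacZ/LacZ over IL34LacZ/+, for 9 genes in all astrocyte-gated cells and in both astrocyte types, with exact 95% intervals of counting error; dotted lines mark 2-fold. Neto2 lies at −1.66 in all astrocyte-gated cells, Gabrg3 at −1.0 and Gria2 at −0.47, and the other intervals from all astrocyte-gated cells include 0.

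The other genes of transmitter and peptide signalling give the members their setting. Of 123 such genes, 21 had at least 100 CPM in the astrocyte-gated cells of both libraries, among them 3 of 16 GABA-A subunits (Gabra2, Gabrb1 and Gabrg1), both GABA-B subunits, 3 of 4 AMPA subunits, 1 of 5 kainate subunits (Grik2), 3 of 7 NMDA subunits and 2 of 8 metabotropic glutamate receptors (Grm3 and Grm5). Among the 21 was also Ntsr2, a marker of the astrocyte gate itself. The share of all genes at that level was not computed. With Gabra2 at 255 and 248 CPM, astrocytes held RNA of an alpha, a beta and a gamma subunit of the GABA-A receptor. Of the NMDA subunits, Grin1 gave only 3 and 6 UMIs (1.34 and 5.27 CPM). Among neuropeptides, 9 of 14 genes were at 0 in both libraries and none passed 4.02 CPM, the value of Npy. Of the list, 49 genes were tested between the libraries, 0 were higher in the library labelled IL34LacZ/LacZ and 3 were lower, where 0.752% and 1.57% of all genes were, 2.32% in all. The 3 were Neto2, Grm7 and Htr2b. Grm7 was at 27.7 and 6.15 CPM (log2 ratio −2.17, −3.54 to −1.04), on 62 and 7 UMIs. Its share of cells with a UMI was nearly equal, at 5.67% and 5.26%, so few cells carried the difference. Htr2b was at 14.3 and 5.27 CPM (−1.44, −2.99 to −0.16), on 32 and 6 UMIs in 10.5% and 3.51% of cells. In telencephalic-type cells 0 of 25 list genes were higher and 5 were lower, where 7.74% of all genes passed in either direction. These were Gria1 (−1.99, on 41 and 5 UMIs), Gria4 (−1.65), Grm5 (−1.58, on 31 and 5 UMIs), Grin3a (−1.25) and Grik2 (−1.13).

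Along the astrocyte types split at 0.05%, Gria1 differed more than any member. It encodes the AMPA subunit GluA1. For IL34LacZ/+ it was at 171 CPM in telencephalic-type and 1105 CPM in other astrocytes (log2 ratio 2.69, 2.25 to 3.18). For IL34LacZ/LacZ it was at 43.1 and 1196 CPM (4.79, 3.57 to 6.42). The telencephalic-type levels rested on 41 and 5 UMIs. At the 0.1% cut the log2 ratio of Gria1 was 2.31 and 2.12, the latter below the 2.66 of Grm5. Of 49 list genes tested for IL34LacZ/+, 6 were higher in other astrocytes (Gria1, Adra2a, Adora2b, Glrb, Gabbr2 and Grm5) and 4 were lower, among them Grm3, Grik5 and Grik1, where 9.05% of all genes passed. Of 38 tested for IL34LacZ/LacZ, 9 were higher (Gria1, Hrh1, Ednrb, Gria4, Grin3a, Adora1, Grik4, Adra2a and Grm5) and 2 were lower (Grm3 and Gabrg3), where 9.1% of all genes passed. At the 0.1% cut, 8 were higher and 2 lower for IL34LacZ/+, where 4.79% and 4.1% of all genes were, 8.9% in all, and 11 were higher and 4 lower for IL34LacZ/LacZ, where 5.09% and 4.04% of all genes were, 9.13% in all. At the 0.05% cut the list thus held, beside Grm5, Gria1 and the adrenergic receptor Adra2a on the higher side in both libraries, and Grm3 alone on the lower side in both.

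Genes with the most similar profile were sought over the 7 classes that had at least 20 cells in each library, as Pearson's r of log2(CPM + 10) over 14 class-by-library points among 12581 genes. Points of 1 library share its depth and free RNA. Closest to Gabrg1 were Rpe65, Egfl6 and Fam124a (r of 0.997 to 0.995), and closest to Grin2c were Fam163a, Etv4 and Cxcl14 (0.991 to 0.990). Gria2 was closest to Nrcam, Astn1 and Ptprt (0.990 to 0.987) and Gabrb1 to Ptprz1, Kcnn2 and Rfx4 (0.980 to 0.977). Both patchy receptors had Lrfn2 and Grin2b among their 3 nearest genes: Gabrg3 (0.984 and 0.973), which also had Grm5 (0.969), and Grm5 (0.980 and 0.969), which also had Sema5b (0.974). That likeness is between classes: across single astrocyte-gated cells Gabrg3 and Grm5 had r of −0.08 and −0.03. Grm3, shared by pericytes, astrocytes and oligodendrocytes, was closest to Fgf12, Specc1 and Daam2 (0.972 to 0.957). Grik1 was closest to Spsb1, Litaf and Enoph1 (0.958 to 0.939), and Neto2 to Gm37051, Gm42946 and Igsf21 (0.956 to 0.928). For Npy the best match was only 0.77 (mt-Th, then Gpr141 and Rgl3), on the few UMIs it had in these classes.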

How the data were processed

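The authors deposited UMI counts per gene and cell barcode for 2 libraries of sorted brain cells (10x 3′ kit v3.1, per the labels' protocols). Per the file headers, these came from Cell Ranger 7.1.0. The submitters' processing notes name mm10 and GRCm38.p6. Nothing says whether introns were counted. From these counts, barcodes with at least 1000 UMIs, 500 genes and at most 15% mitochondrial UMIs were kept. Scrublet marked 3 and 7 barcodes (0.180% and 0.596%), which were left out. Of the barcodes, 8 occurred in both files, 2 of them among kept cells. A cell entered a class when its marker score was at least 0.5 above the mean over all cells and at least 0.5 above its next score, with 3 markers detected. Counts were summed per class and library, and 2-fold calls needed 30 UMIs and an exact 95% conditional binomial interval off 1. The UMI minimum was not applied to the member counts under other settings, nor the interval where every cell was weighted equally. Named genes are the 10 members, the 3 most alike genes of each, and receptor-list genes past 2-fold. Il34, Gja1, Gabra2, Grik2, Grin1, Ntsr2 and the regional genes were named after their values were seen. One list gene past 2-fold is not reported here. Members and lists were chosen with earlier results of these data known. Code was tested on simulated data. Python 3.11.15, scanpy 1.11.5 and scipy 1.17.1 were used.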

Additional observations from a re-analysis of the deposited data

Results flagged for a closer look

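The ratio of other over telencephalic-type astrocytes had opposite signs in the libraries for 2 genes, a difference that was not tested. Neto2 had a log2 ratio of −0.53 for IL34LacZ/+ and 0.45 for IL34LacZ/LacZ, the latter on 1 UMI in telencephalic-type cells. At the 0.1% cut both Neto2 signs turned, to 0.36 and −1.31. Gria2 had −0.016 and 0.029, both with intervals that include 0. Npy was found at 2.61 CPM (1.99 to 3.37), 59 UMIs in 46 barcodes, among the 4225 IL34LacZ/LacZ barcodes left out by the cell filter, where the kept cells of that library had 0.287 CPM. The median left-out barcode there had 33.4% mitochondrial UMIs, and no barcode held more than 5 Npy UMIs.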

How the results depend on the processing

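No paired analysis was possible because each genotype is 1 library and the labels carry no replicate numbers; for the same reason no library could be left out in turn. The number of members past 2-fold between the libraries was 1. It was 2 with at least 2000 UMIs per cell, at most 10% mitochondrial UMIs, the stricter marker gate, classes from Leiden clusters, when the top 2% of cells for each gene were dropped, and with every cell weighted equally, and 0 with cells thinned to 1000 UMIs. The number between astrocyte types was 3 in each library; thinned it was 0 and 1 for IL34LacZ/+ and IL34LacZ/LacZ, and with every cell weighted equally it was 1 for IL34LacZ/+. The receptor list had 3 genes past 2-fold between the libraries, 0 with at least 100 UMIs and 6 at 1.5-fold. The member counts away from the main setting were taken without the UMI minimum of the main calls. With every cell weighted equally there was also no interval, so a member counted there on its ratio alone. They are therefore not the same measure as the main calls. For these member and list counts away from the main setting the share over all genes was not computed, so nothing is read from them. Over all settings run, the log2 ratio between the libraries ranged from −1.88 to −1.34 for Neto2, from −1.41 to −0.94 for Gabrg3 and from −0.54 to −0.41 for Gria2. Other over telencephalic-type astrocytes ranged from −1.59 to −0.92 and from −2.50 to −1.55 for Grm3, and from 0.59 to 4.31 and from 0.93 to 4.57 for Grm5, for IL34LacZ/+ and IL34LacZ/LacZ. These ranges include a cut at 0.2%, which was chosen after seeing the data. Gria2 (−0.77 to 0.42 and −0.76 to 0.65), Gabrg1 (−0.58 to 0.70 and −0.15 to 1.15) and Neto2 (−1.80 to 0.52 and −1.79 to 0.67) changed sign among the settings in both libraries, as did Gabrg3 for IL34LacZ/+ (−0.92 to 0.78), and Gabrb1 (−0.65 to 0.20) and Grik1 (−3.09 to 1.37) for IL34LacZ/LacZ; the cause was not tested. With 12 telencephalic-type cells in one library and 26 in the other, sparse genes could not be placed at this depth.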
